A study of Mus musculus with 12 samples.

Results

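The comparison described here is that of adult mice with a scald burn against untreated adult mice, 3 libraries in each group, 6 of the 12 libraries of the series. The members are all genes of the adult count table, and the libraries were assigned by their labels. Every mouse was a wild-type C57BL/6J animal, and adipose tissue was collected at day 7. Burned mice had been immersed in water at 98 °C, for 10 seconds on the back (20% of the body surface) and 2 seconds on the belly (another 10%), giving a burn of 30% in all, with buprenorphine for pain. The controls are labelled untreated, so the burn cannot be told apart from the handling and the analgesic unless the controls had these too, which the labels do not say. They also leave out the age in weeks, the sex, the depot and whether each library came from its own mouse, and the p-values below therefore reflect variation among libraries that may be technical.

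White adipocytes store triglyceride in 1 large droplet and hold few mitochondria, while brown and beige adipocytes hold many and burn fatty acids to make heat through uncoupling protein 1. Beige adipocytes arise in white depots under cold or adrenergic stimulation, and severe burns are known for a prolonged adrenergic and hypermetabolic response. Fatty acids enter mitochondria as carnitine esters and are shortened by beta oxidation, the acetyl groups pass to the citric acid cycle, and the electrons pass through coenzyme Q to the respiratory chain. Nuclear receptors of the PPAR and estrogen-related receptor families, with PGC-1 coactivators, drive many of the genes for these steps.

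Total counts per library ran from 25231506 to 32236330, and 14600 genes passed the filter on low counts. Levels are given as CPM, counts scaled to the same library total over these genes, and adjusted by TMM, differences as log2 fold changes of burn against control from edgeR's quasi-likelihood fit with their standard errors, and a gene is called at a Benjamini-Hochberg adjusted p under 0.05 over all genes tested. The tissue was adipose by its defining markers: Adipoq, encoding adiponectin, stood at 1318 to 3569 CPM in the 6 libraries. Control 1 stood apart, with 264 CPM of the B cell gene Cd79a against at most 0.902 in the other libraries, 67.8 CPM of the T cell gene Cd3e against at most 1.2, and the lowest Adipoq. Burn 1 had 709.9 CPM of Acta1, skeletal muscle actin, against 3.7 to 16 in the other 5 libraries. Control 3 had 61.3 CPM of the neutrophil gene S100a8 against at most 7.7. Xist was at most 0.15 CPM and Zic1, a gene of classical brown fat, at most 0.116 CPM in every library.

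**Figure D1:**
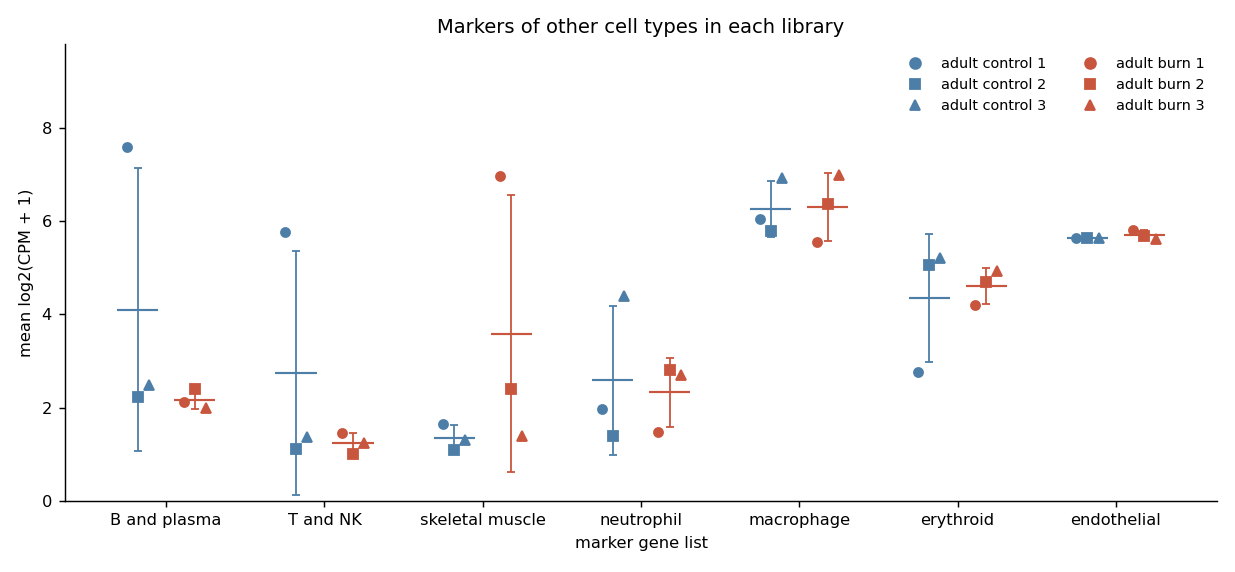
Mean log2(CPM + 1) of marker lists of other cell types (y axis) in each adult library (points), with the group mean and SD as bars. Lymphoid lists are high in control 1 alone, at 7.59 for B and plasma cells and 5.76 for T and NK cells, and the muscle list is high in burn 1, at 6.97.

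Past the threshold 9 genes were higher in burn and none was lower (edgeR, 0.0616% of genes tested called higher and 0% lower). At an unadjusted p under 0.05 there were 642 genes, 419 higher and 223 lower in burn. DESeq2 on the same counts called 63 genes, all higher (0.379% of 16625 genes tested), and these held all 9; by DESeq2 489 genes were higher and 504 lower at an unadjusted p under 0.05. Of the 9, 6 belong to the list of 22 thermogenic adipocyte genes: Ucp1, Dio2, Fabp3, Gk, Cpt1b and Slc27a2. That list, like the others, was chosen with earlier results of these data known. The other 3 were Lgr6, a receptor for R-spondins, Kng2, which encodes a kininogen, and Lncbate10, a long non-coding RNA known from brown adipocytes. The fold changes were large and all 3 burn libraries lay above all 3 controls for each of the 9. On the log2 scale they ran from 2.49 for Gk to 6.10 for Ucp1, leaving out Lncbate10, which had 1 read in all controls together.

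**Figure D2:**
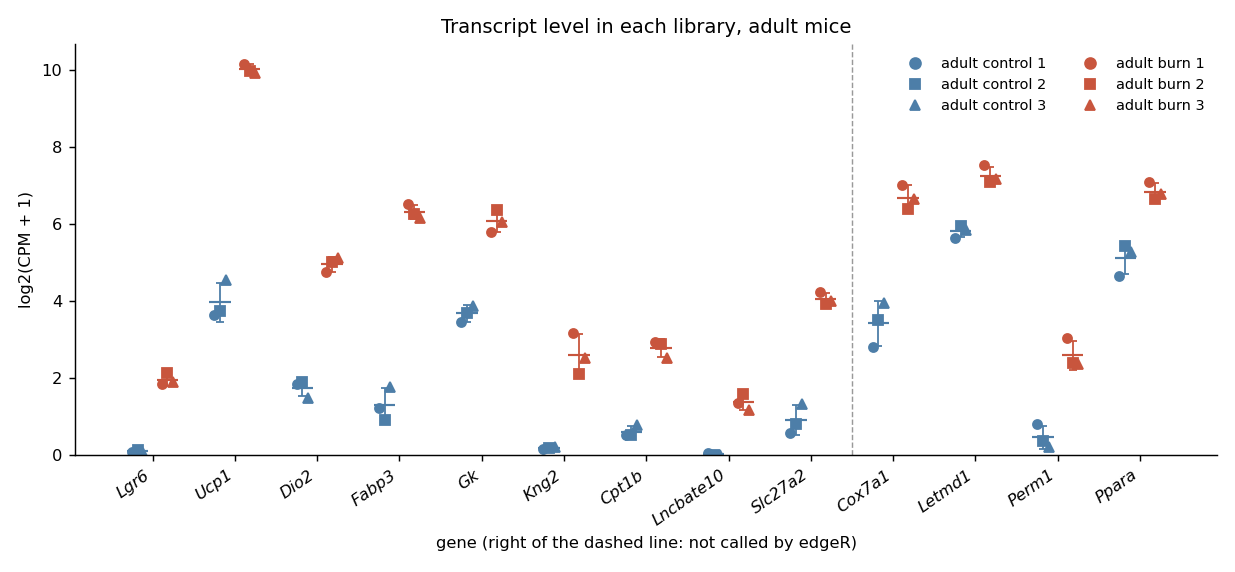
Transcript level as log2(CPM + 1) (y axis) of the 9 genes called by edgeR and, right of the dashed line, 4 genes it did not call, in each adult library, with the group mean and SD as bars. Burn and control libraries do not overlap for any of the 13 genes shown.

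The promoters of 3 genes are shown here because the text turns on them: Ucp1 as one of the pair with the smallest p, Dio2 as the called gene whose window held a searched motif, and Hadhb because it shares its window with Hadha. Each is the 250 bases before the start of transcription on the gene's own strand, from RefSeq for GRCm38.p6, and capitals mark TGACGTCA, the cyclic AMP response element, a palindrome that reads the same on both strands.
Ucp1 (chr8:83290098-83290347, plus strand): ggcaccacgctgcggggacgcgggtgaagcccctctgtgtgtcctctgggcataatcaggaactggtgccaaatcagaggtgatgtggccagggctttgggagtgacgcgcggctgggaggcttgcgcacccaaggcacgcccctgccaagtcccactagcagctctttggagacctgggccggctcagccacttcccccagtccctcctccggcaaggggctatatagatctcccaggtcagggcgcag
Dio2 (chr12:90739039-90739288, minus strand): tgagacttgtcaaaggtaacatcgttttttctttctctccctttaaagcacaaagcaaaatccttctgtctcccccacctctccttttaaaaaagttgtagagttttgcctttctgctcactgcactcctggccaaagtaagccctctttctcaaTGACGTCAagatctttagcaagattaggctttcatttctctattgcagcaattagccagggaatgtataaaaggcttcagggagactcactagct
Hadhb (chr5:30155003-30155252, plus strand): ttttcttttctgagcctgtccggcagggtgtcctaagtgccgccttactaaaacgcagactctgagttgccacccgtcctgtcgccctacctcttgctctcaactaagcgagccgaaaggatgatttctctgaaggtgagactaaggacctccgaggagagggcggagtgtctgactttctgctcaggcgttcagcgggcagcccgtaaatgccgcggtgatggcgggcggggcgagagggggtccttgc

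Promoters on chromosome 18, where Lncbate10 lies, were left out of the search and of every share given here. Of the 9 called genes, 7 had a promoter among those searched. That of Lgr6 belongs to a transcript that starts inside the gene's annotated span. TGACGTCA occurred in 1 of these 7, that of Dio2, where it began 95 bases before the start, and in 2.89% of the 11144 promoters of tested genes. Searched on both strands, TNAAGGTCA, an extended half-site known for estrogen-related receptors, and the direct repeat known for PPARs with their RXR partner, 2 copies of AGGTCA with any 1 base between them, occurred in none of the 7, against 0.79% and 0.0538% of the promoters of tested genes. In the 67 available promoters of nuclear respiratory chain genes TNAAGGTCA occurred in 2 (2.99%), and in the 20 of fatty acid oxidation genes in none. These matches describe the letters of the windows and not binding.

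Lgr6 stood at 0.0506, 0.0931 and 0.0374 CPM in controls 1 to 3 and at 2.55, 3.36 and 2.7 CPM in burn libraries 1 to 3. The controls held 6 reads in all and the burn libraries 214, spread almost evenly over the 3. Its log2 fold change was 5.46 ± 0.39 (SE, n = 3 per group, edgeR adjusted p = 0.00829), 5.30 without control 1 and 5.55 without burn 1. The gene lies at 134983300 to 135105374 on chromosome 1, with no other RefSeq gene overlapping it. LGR6 and its relatives LGR4 and LGR5 bind R-spondins and strengthen Wnt signaling. Lgr4 was 18, 30 and 32 CPM in controls against 34.9, 32.6 and 27.6 CPM in burn, and these groups overlapped. Of the list of 20 tested genes of the R-spondin and Wnt axis, Lgr6 was the only one called (0.0616% of all genes tested). In that list 5 had a positive log2 fold change (45.2% of all genes), and the median was −0.24, against −0.04 over all genes tested. That median moved to −0.06 without control 1, in which Tcf7, a T cell transcription factor that the list holds, stood at 169 CPM against at most 1.4 CPM elsewhere, and to −0.00 without burn 3.

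Kng2 stood at 0.101, 0.124 and 0.15 CPM in controls and at 7.96, 3.28 and 4.67 CPM in burn libraries. All 3 burn libraries were high, burn 1 highest. The log2 fold change was 5.39 ± 0.52 (SE, n = 3 per group, edgeR adjusted p = 0.0406), 5.22 without control 1 and 4.98 without burn 1. The call ended with limma-voom (adjusted p = 0.108) and with its quality weights (adjusted p = 0.551). Kininogens are cleaved by kallikreins to release bradykinin. Kng1, a near-identical neighbour, was at 0 counts in all 6 libraries, and no source used here gives how reads that fit both genes were counted, so the 2 genes are uncertain as a pair. The B2 bradykinin receptor gene Bdkrb2 was at most 0.48 CPM in any library, too low for the test. Cpn2, encoding a subunit of the carboxypeptidase N that trims kinins in plasma, stood at 1.62, 2.45 and 0.785 CPM in controls against 11.6, 9.47 and 11.4 CPM in burn, a log2 difference of 2.72 ± 0.39 that edgeR did not call (adjusted p = 0.252) and DESeq2 did (adjusted p = 2.87e-07). Cpn1, which encodes the catalytic subunit, had 5 reads in the controls together and 0 in the burn libraries.

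Lncbate10 had 1 read in control 1, 0 in controls 2 and 3, and 40, 48 and 30 reads in burn libraries 1 to 3. Scaled for depth, the pooled ratio was 156, with a 95% interval of 27.4 to 6202 that covers counting error only. The edgeR adjusted p was 0.0425, and the call ended without a count filter (0.126) and with legacy fitting (0.0752).

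Among the called enzymes and carriers of the thermogenic list, Dio2, the deiodinase that makes active thyroid hormone inside the cell, stood at 2.58, 2.73 and 1.8 CPM in controls and 25.7, 31.2 and 33.5 CPM in burn. Its log2 fold change was 3.66 ± 0.23 (SE, n = 3 per group, edgeR adjusted p = 0.00917), 3.71 without control 1 and 3.77 without burn 1. The other 6 tested genes of the thyroid hormone axis did not pass: the receptor genes Thra (81.6, 127 and 84.1 CPM against 116, 115 and 92.5 CPM) and Thrb (17.6, 39.1 and 41.9 CPM against 36, 43.4 and 44.6 CPM) overlapped between groups.

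Fabp3, a fatty acid binding protein best known from heart and muscle, stood at 1.34, 0.869 and 2.39 CPM in controls and 90.5, 75.6 and 70.7 CPM in burn. Its log2 fold change was 5.70 ± 0.38 (SE, n = 3 per group, edgeR adjusted p = 0.00927). Burn 2 and burn 3, where Acta1 was 16 and 6.23 CPM, were nearly as high as burn 1, and the fold change without burn 1 was 5.59. Fabp3 overlaps Zcchc17 in the annotation, whose level was 29.9 to 41.2 CPM in controls and 33.4 to 39.1 CPM in burn. Cpt1b, the muscle and brown fat form of the carnitine transferase that admits fatty acids to mitochondria, was also low in every control and higher in every burn library: 0.43, 0.435 and 0.711 CPM in controls against 6.65, 6.32 and 4.67 CPM in burn, and 3.41 without burn 1 against 3.50 ± 0.32 with it (edgeR adjusted p = 0.0406). The Cpt1b call ended without a count filter (0.0504), with legacy fitting (0.0528) and with weighted limma-voom (0.105). The widely expressed form Cpt1a stood at 51.5, 58.6 and 47 CPM against 47.4, 39.7 and 48.5 CPM and overlapped between groups.

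Slc27a2, a fatty acid transporter and acyl-CoA synthetase, stood at 0.48, 0.745 and 1.5 CPM in controls and 17.8, 14 and 14.8 CPM in burn (log2 fold change 4.14 ± 0.41, edgeR adjusted p = 0.0486). This call, the one nearest the threshold, ended with RLE scaling (0.0522), upper quartile scaling (0.0605), no count filter (0.0504) and legacy fitting (0.0812). Gk, glycerol kinase, which lets a cell reuse the glycerol that lipolysis frees, stood at 9.93, 11.9 and 13.7 CPM in controls and 54.6, 80.7 and 65 CPM in burn (2.49 ± 0.21, edgeR adjusted p = 0.032). Ucp1 itself was 11.3, 12.2 and 22.1 CPM in controls and 1149, 1009 and 977 CPM in burn (6.10 ± 0.36, edgeR adjusted p = 0.00829). No control library of these 3 genes reached any burn library. Without control 1 the differences were 3.79 for Slc27a2, 2.37 for Gk and 5.91 for Ucp1, and without burn 1 they were 4.03, 2.62 and 6.03.

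The calls changed with the libraries that were fitted. Leaving out 1 library gave between 0 and 6 calls by edgeR. There was 1 without control 1 (Ucp1), 2 without control 2 and 6 without control 3, of which 4 were among the 9. There were 0 without burn 1, burn 2 or burn 3. At an unadjusted p under 0.05 there were 510, 1737 and 1737 genes without control 1, 2 or 3. Without burn 1, 2 or 3 there were 231, 363 and 371, against 642 with all libraries. Without control 1 and burn 1 together edgeR called 0 genes, with 282 at an unadjusted p under 0.05. DESeq2 called 104 genes without control 1, 34 without burn 1 and 45 without both, and all 9 edgeR genes were among each of these, a choice of alternative made after seeing the data. Of the 63 genes that DESeq2 called with all libraries, 59 were also called without control 1, 25 without burn 1 and 37 without both.

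Among genes that were not called, were higher in burn without overlap and reached a mean of 5 CPM, and leaving out gene models with no name of their own, the 12 with the smallest p were Cox7a1, Acot11, Letmd1, Me3, ND6, Phospho1, Cpn2, Ppara, Perm1, Plin5, S100b and Pdk4, each called by DESeq2 and not by edgeR. Cox7a1, a subunit of cytochrome c oxidase used in heart, muscle and brown fat, stood at 5.97, 10.3 and 14.3 CPM in controls against 129, 83.2 and 98.6 CPM in burn (log2 difference 3.35 ± 0.36, edgeR adjusted p = 0.0705). Letmd1, a mitochondrial membrane protein needed for brown fat function, was less variable, at 48.9, 60.7 and 56 CPM against 182, 135 and 141 CPM (1.47 ± 0.17, edgeR adjusted p = 0.102).

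Me3, mitochondrial malic enzyme, stood at 0.506, 0.497 and 0.748 CPM in controls against 7.65, 4.43 and 3.36 CPM in burn. Plin5, the droplet coat protein that ties lipid droplets to mitochondria, stood at 13.5, 21.7 and 20.3 CPM against 56.8, 42.7 and 58.6 CPM. Pdk4, the kinase that shuts off pyruvate dehydrogenase, stood at 67.2, 176 and 131 CPM against 743, 479 and 616 CPM. Neither these nor Acot11, a thioesterase, or Phospho1, a phosphatase of phosphocholine and phosphoethanolamine, overlapped between groups, and their log2 differences ran from 1.51 to 4.28. S100b, a calcium-binding protein of Schwann cells and adipocytes, stood at 6.19, 8.88 and 7.29 CPM against 26.4, 18.1 and 17.8 CPM, while the 9 tested nerve and Schwann cell genes had a median of −0.32 and 3 positive members.

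Perm1, a PGC-1 and estrogen-related receptor induced regulator of mitochondrial genes known from muscle, stood at 0.733, 0.279 and 0.15 CPM in controls and 7.15, 4.22 and 4.14 CPM in burn. Burn 1 was the highest, and burn 2 and burn 3 were both above every control. The log2 difference was 3.64 ± 0.53 (edgeR adjusted p = 0.261) and 3.35 without burn 1. Muscle markers moved with this library as a list: all 19 tested were positive, with a summed level of 82.3 to 105 CPM in controls and of 4781, 172 and 113 CPM in burn libraries 1 to 3, and the part of muscle in the values of burn 1 was not tested.

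The mitochondrial lists were higher in burn as a whole, with a small median difference and single genes from −1.17 to 6.10. Of 421 tested genes in them, 394 (against 45.2% of all genes) had a positive log2 fold change, and the median was 0.44, against −0.04 over all genes tested. In 173 of the 421 every burn library lay above every control, and in 2 below, against 6.71% and 3.57% of all genes. edgeR called 2 of the 421, Ucp1 and Cpt1b, and DESeq2 21, against 0.0616% and 0.379% of all genes tested. With the thermogenic genes set aside, the median of the remaining 414 was 0.43, none was called by edgeR (108 higher and 0 lower at an unadjusted p under 0.05) and 16 were called by DESeq2. Without control 1 that median was 0.22 and 364 were positive, without burn 1 it was 0.43, and without both it was 0.22 with 373 positive. Leaving out control 3 moved it the other way, to 0.66.

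**Figure D3:**
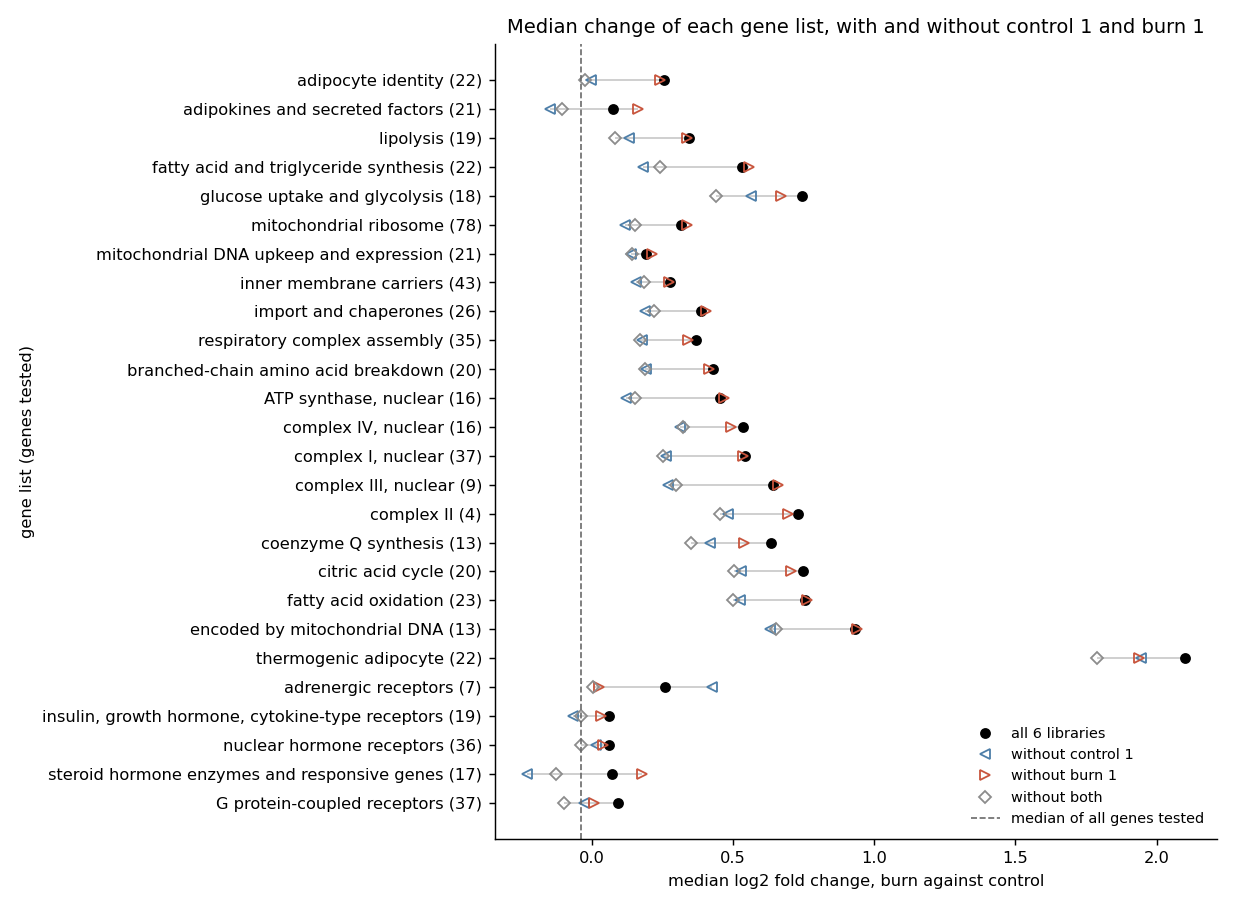
Median log2 fold change (x axis) of each gene list (y axis, number of genes tested in brackets) with all 6 adult libraries, without control 1, without burn 1 and without both; the dashed line is the median of all genes tested, −0.04. Leaving out control 1 brings adipocyte identity from 0.26 to about 0 and fatty acid oxidation from 0.76 to 0.53.

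In fatty acid oxidation 22 of 23 members were positive and 20 were higher without overlap, against 45.2% and 6.71% of all genes. The median was 0.76, and it was 0.53 without control 1, 0.76 without burn 1 and 0.50 without both. DESeq2 called 6 of them, Cpt1b, Acaa2, Hadha, Etfdh, Acadvl and Hadhb, against 0.379% of all genes it tested. Hadha and Hadhb encode the 2 subunits of the trifunctional protein, which carries out the last steps of beta oxidation on long chains. Hadha stood at 238, 374 and 434 CPM in controls against 906, 773 and 847 CPM in burn, and Hadhb at 131, 227 and 286 CPM against 591, 466 and 538 CPM. Their log2 differences of 1.27 ± 0.26 and 1.31 ± 0.30 lay within their errors of each other (edgeR adjusted p = 0.774 for both). The 2 genes are transcribed in opposite directions on chromosome 5 from starts with 272 bases between them, so that their 250-base promoter windows share 228 bases, all but the end of the Hadhb sequence above.

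Acaa2, a mitochondrial thiolase of beta oxidation, stood at 139, 245 and 203 CPM in controls against 627, 446 and 505 CPM in burn (1.43 ± 0.26, DESeq2 adjusted p = 0.000442). Acadvl, very long chain acyl-CoA dehydrogenase, stood at 223, 370.0 and 423 CPM against 875, 734 and 794 CPM. Etfdh, which hands the electrons of beta oxidation to coenzyme Q, stood at 83.8, 149.8 and 159 CPM against 308, 297 and 290.0 CPM. Each burn library was above each control for all 3, and control 1 was the lowest control for all 3. Without both control 1 and burn 1 their log2 differences were 1.08, 0.95 and 0.92.

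In the citric acid cycle all 20 tested genes were positive and 16 did not overlap (6.71% of all genes with burn higher). The median was 0.75 (0.53 without control 1, 0.71 without burn 1, 0.50 without both). DESeq2 called 5 of the 20 (0.379% of all genes it tested) and edgeR none. Among these were Sucla2 and Suclg1, which form the ATP-linked succinyl-CoA ligase, and Dlst and Ogdh, of the oxoglutarate dehydrogenase complex. Sucla2 stood at 154, 265 and 280.0 CPM in controls against 599, 492 and 575 CPM in burn (log2 difference 1.25 ± 0.26, DESeq2 adjusted p = 0.0084). Suclg2, of the GTP-linked form, stood at 52, 79.2 and 105 CPM against 104, 107 and 103 CPM and overlapped. Cs, citrate synthase, stood at 478, 782 and 701 CPM against 1142, 973 and 1113 CPM and was called by neither tool.

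Coenzyme Q synthesis had 13 of 13 positive, 11 without overlap (6.71% of all genes with burn higher) and a median of 0.63 (0.42 without control 1). Coq8a, an atypical kinase of that pathway, was its member with the smallest p, at 45.2, 62.2 and 107 CPM in controls and 213, 199 and 177 CPM in burn (1.46 ± 0.32, DESeq2 adjusted p = 0.0155). Of the 81 tested nuclear genes of the respiratory chain and ATP synthase, 79 were positive and 21 did not overlap (6.71% of all genes with burn higher). Their median was 0.55, and it was 0.26 without control 1 and 0.91 without control 3. Cox7a1 was the single one that DESeq2 called (0.379% of all genes it tested). By complex the medians were 0.54, 0.73, 0.64, 0.54 and 0.45 for complexes I, II, III, IV and ATP synthase. The mean log2(CPM + 1) over the 81 genes was 6.60, 7.30 and 7.81 in controls and 7.96, 7.68 and 8.07 in burn, so that control 3 lay above burn 2.

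All 13 protein genes of mitochondrial DNA were positive, 9 without overlap (6.71% of all genes with burn higher). Their median was 0.93 (0.63 without control 1, 0.94 without burn 1). COX1, the catalytic subunit of cytochrome c oxidase, stood at 11223, 19664 and 28601 CPM in controls against 37605, 33569 and 42316 CPM in burn. All burn libraries were higher, but the standard error was wide (0.93 ± 1.28, edgeR adjusted p = 0.837). That error comes from a fit that shares information across genes and does not measure the spread of COX1 alone. ND6, the 1 protein gene on the other strand, stood at 45.5, 66.3 and 64.4 CPM against 176, 138 and 187 CPM (1.51 ± 0.20, DESeq2 adjusted p = 1.26e-06). ND6 overlaps ND5 in the annotation, and since no source used here gives the strand setting of the counting, reads of the pair may be shared. ND5 had a log2 difference of 0.96 ± 0.61. How reads that also fit nuclear copies of mitochondrial DNA were counted is unknown, so the levels of single mitochondrial genes are uncertain.

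The lists of the machinery that makes mitochondria had smaller medians. The mitochondrial ribosome had 77 of 78 positive with a median of 0.32, which was 0.12 without control 1 and 0.51 without control 3. The list of mitochondrial DNA upkeep and expression had a median of 0.19 (0.33 without control 3), and Tfam, the factor that packs mitochondrial DNA, stood at 42.4, 34 and 38 CPM against 40.8, 38.5 and 41.6 CPM, overlapping. Import and chaperone genes had a median of 0.38 (0.19 without control 1, 0.59 without control 3) and complex assembly factors 0.37 (0.18 and 0.58). No member of these 4 lists was called by edgeR or DESeq2. At an unadjusted edgeR p under 0.05 were 9 of 78, 7 of 21, 6 of 26 and 7 of 35 members, all higher in burn. Over all 14600 genes tested, 419 were higher at that level. In the same order, 21, 8, 11 and 14 members were higher in burn without overlap, beside 6.71% of all genes.

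Control 1, with its lymphoid transcripts, had the lowest adipocyte level, and it was also the lowest library in every mitochondrial list except that of regulators. The list of 22 adipocyte identity genes had a mean log2(CPM + 1) of 9.70, 10.9 and 10.6 in controls and 10.8, 10.7 and 10.7 in burn. Its median log2 fold change was 0.26 with all libraries and −0.00 without control 1 and 0.47 without control 2, and only Slc2a4, the insulin-dependent glucose transporter, had no overlap (139.6, 280.1 and 284 CPM against 352, 346 and 403 CPM). In bulk tissue, fewer adipocytes and less RNA per adipocyte cannot be told apart. When each list was read as a difference from adipocyte identity within the same library, an alternative added after seeing the data and given without a test, fatty acid oxidation was −3.33 ± 0.227 in controls and −2.73 ± 0.0733 in burn (SD, n = 3), the citric acid cycle −2.16 ± 0.226 and −1.68 ± 0.122, and mitochondrial DNA −2.40 ± 0.377 and −1.71 ± 0.251. The burn libraries did not overlap the controls in these 3 or in complex II. They overlapped for nuclear complexes I, III and IV, for ATP synthase and for the mitochondrial ribosome. For the ribosome the difference between groups was 0.01, with −4.75, −5.46 and −4.92 in controls and −5.11, −5.17 and −4.82 in burn. All mitochondrial lists together overlapped too, with a difference between groups of 0.18 relative to adipocyte identity and 0.53 without that step. Over all genes tested the difference was −0.37 relative to adipocyte identity and −0.03 without that step. There control 1 was the highest library, at −5.41 against −6.73 and −6.44 in controls 2 and 3. This step was not repeated without control 1.

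**Figure D4:**
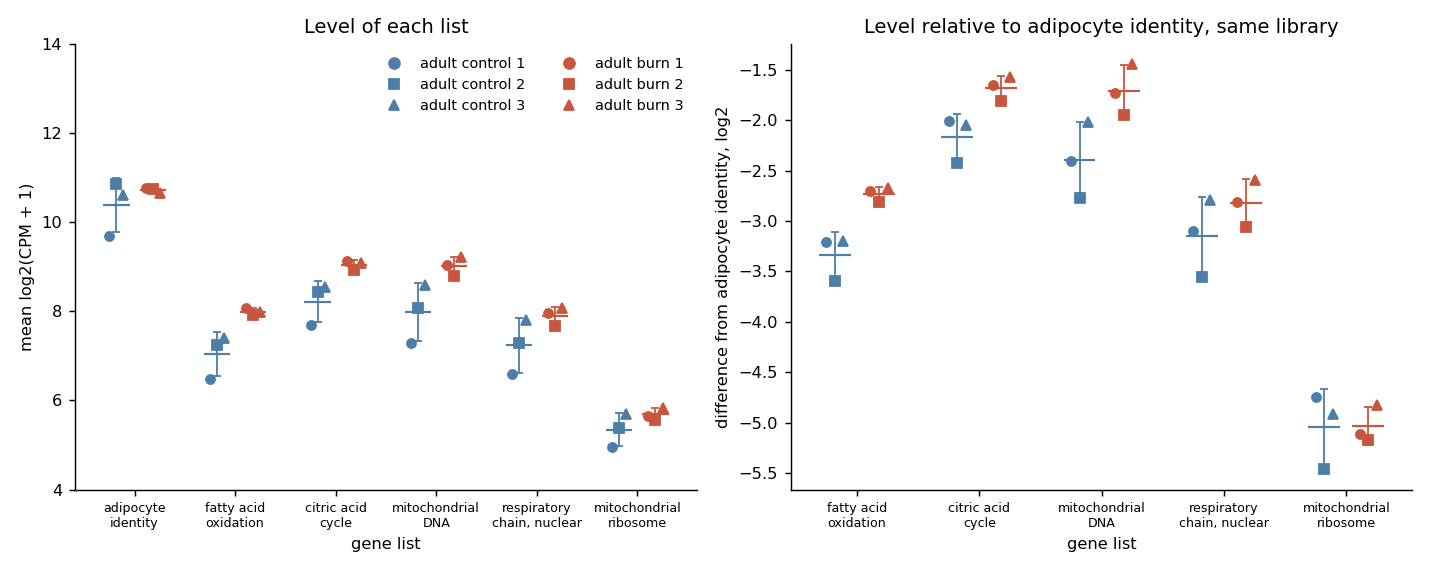
Left, mean log2(CPM + 1) of 6 gene lists in each adult library, with the group mean and SD; right, the same lists as a log2 difference from adipocyte identity in the same library. Control 1 is the lowest library for all 6 lists on the left, and on the right fatty acid oxidation, the citric acid cycle and mitochondrial DNA keep the burn libraries above the controls.

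The adipocyte lists outside heat production differed in how many members separated the groups, beside 6.71% of all genes with burn higher. None of the identity genes was called by edgeR or DESeq2, and 0 had an unadjusted edgeR p under 0.05: Pparg, the master regulator of adipocyte formation, stood at 130.5, 216 and 187 CPM in controls against 205, 244 and 214 CPM in burn, and Lep, encoding leptin, at 293, 609 and 184 CPM against 329, 296 and 235 CPM. Both overlapped. Adipokines and secreted factors had 15 of 21 positive, a median of 0.07 (−0.15 without control 1, 0.29 without control 3) and 1 member without overlap, Nampt. Fatty acid and triglyceride synthesis had 22 of 22 positive and a median of 0.53, which was 0.18 without control 1 and 0.96 without control 3, and 3 members without overlap. Those 3 were Aacs, Gpd1 and Mlxipl, and Gpd1, cytosolic glycerol phosphate dehydrogenase, stood at 1137, 2028 and 2250.2 CPM in controls against 4277, 3203 and 4171 CPM in burn (log2 difference 1.11 ± 0.41, called by neither tool).

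Gpd2, its mitochondrial partner in the glycerol phosphate shuttle, was called by DESeq2 alone, at 94.3, 139 and 206 CPM against 393, 304 and 427 CPM (1.35 ± 0.31, DESeq2 adjusted p = 0.0236). Glucose uptake and glycolysis had 16 of 18 positive, 9 without overlap (6.71% of all genes with burn higher) and a median of 0.74 (0.56 without control 1, 0.67 without burn 1, 0.44 without both). Of that list DESeq2 called 2 genes (0.379% of all genes it tested), Pfkl and Ldhb. Pfkl, the liver-type phosphofructokinase, stood at 94.9, 122 and 158 CPM against 348, 215 and 315 CPM. Ldhb, the heart-type lactate dehydrogenase, stood at 55.1, 99.2 and 82.6 CPM against 207, 145 and 171 CPM. The muscle-type Pfkm was 123 CPM in burn 1 against 44.9 and 40 CPM in burn libraries 2 and 3, and its log2 difference of 1.25 became 0.55 without burn 1.

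Lipolysis genes had a median of 0.34 (0.13 without control 1, 0.62 without control 2 and 0.53 without control 3) and 6 of 19 without overlap, beside 6.71% of all genes. The enzymes Lipe and Pnpla2 overlapped. The 6 were Adrb1, Prkar2b, Prkaca, Pde4d, Adcy3 and Gnas. Of these Adcy3, an adenylyl cyclase, stood at 38.6, 55.8 and 47.2 CPM in controls against 70.4, 85.8 and 75 CPM in burn (0.71 ± 0.17), and Pde4d, a phosphodiesterase that degrades cyclic AMP, at 25.4, 36.2 and 22.3 CPM against 51.6, 50.7 and 47.5 CPM (0.84 ± 0.20). Neither was called (edgeR adjusted p = 0.774 for both).

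The receptor lists together had a median log2 fold change near that of all genes. They also hold genes of the thyroid, steroid, kinin and Wnt axes that encode no receptor. Of 146 tested in all receptor lists, 81 were positive (45.2% of all genes). Without overlap 13 lay above and 5 below the controls (6.71% and 3.57% of all genes), shares near those of all genes. The median was 0.05 (−0.02 without control 1, 0.20 without control 2, 0.01 without burn 1). edgeR called 3 of them (0.0616% of all genes tested), Lgr6, Dio2 and Kng2, of which Lgr6 alone encodes a receptor. Among adrenergic receptors, Adrb3, the main beta receptor of mouse adipocytes, stood at 309, 710.4 and 426 CPM in controls against 752, 520.2 and 458 CPM in burn; the groups overlapped, with a log2 difference of 0.26 ± 0.36 that was 0.00 without control 1. Adrb1 stood at 3.56, 5.52 and 3.07 CPM against 9.16, 6.85 and 8.16 CPM (0.99 ± 0.28, edgeR adjusted p = 0.774), and Adra1a at 11.6, 23.7 and 14.8 CPM against 29.7, 33 and 24.9 CPM (0.81 ± 0.29, the same adjusted p). These last 2 did not overlap between groups.

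Adra2a, an alpha receptor gene, moved with control 1: it was 4.45 CPM there against 0.615 to 0.82 CPM elsewhere, and its log2 difference of −1.49 became −0.06 without that library. The leptin receptor gene Lepr behaved in the same way, at 13.1 CPM in control 1 against 1.18 to 2.09 CPM elsewhere, with −1.82 becoming −0.07. The lymphoid part of these values was not tested. Insr, the insulin receptor (105, 192 and 135 CPM against 163, 198 and 146 CPM), and Ghr, the growth hormone receptor (661, 1335 and 1413 CPM against 1295, 1437 and 1262 CPM), overlapped.

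Of 49 nuclear hormone receptors 36 were tested, 24 were positive (45.2% of all genes), 5 were higher without overlap (6.71% of all genes) and the median was 0.06, beside −0.04 for all genes tested, and 0.24 without control 2. Ppara, the fatty acid sensing receptor that turns on oxidation genes, stood at 23.9, 42.3 and 37.4 CPM in controls against 136, 98.3 and 109 CPM in burn. Its log2 difference was 1.73 ± 0.25, 1.50 without control 1, 1.59 without burn 1 and 1.38 without both, and it was called by DESeq2 (adjusted p = 3.52e-06) and not by edgeR (adjusted p = 0.252). The other PPARs overlapped: Pparg at 0.31 ± 0.21 and Ppard at 0.02 ± 0.21. Esrrg, estrogen-related receptor gamma, stood at 2.7, 3.32 and 0.337 CPM against 8.81, 6.52 and 7.09 CPM (1.79 ± 0.63, edgeR adjusted p = 0.774), and Esrra, the alpha form, at 61.2, 73.3 and 78.9 CPM against 89.7, 90.3 and 91 CPM (0.34 ± 0.14). The remaining 2 of the 5 were Nr4a2 at 0.62 and Nr2f6 at 0.36.

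The PGC-1 coactivator genes were alike in size: Ppargc1a stood at 12.5, 20.2 and 18.4 CPM in controls against 24.9, 38.1 and 41.1 CPM in burn (1.03 ± 0.27) and Ppargc1b at 10.7, 12.2 and 20.8 CPM against 27.3, 34.6 and 30.5 CPM (1.08 ± 0.28). Neither overlapped between groups and neither was called by either tool. The third coactivator of the family, Pprc1, was 39.3 CPM in control 1 against 11.4 to 14.8 CPM elsewhere. Among steroid receptors, the glucocorticoid receptor gene Nr3c1 stood at 193, 258 and 239 CPM against 222, 267 and 223 CPM, and its target Fkbp5 at 40.1, 44.3 and 41.2 CPM against 35, 32.3 and 26.1 CPM. Fkbp5 lay below all controls in every burn library, at −0.43 ± 0.15, and was not called.

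**Figure D5:**
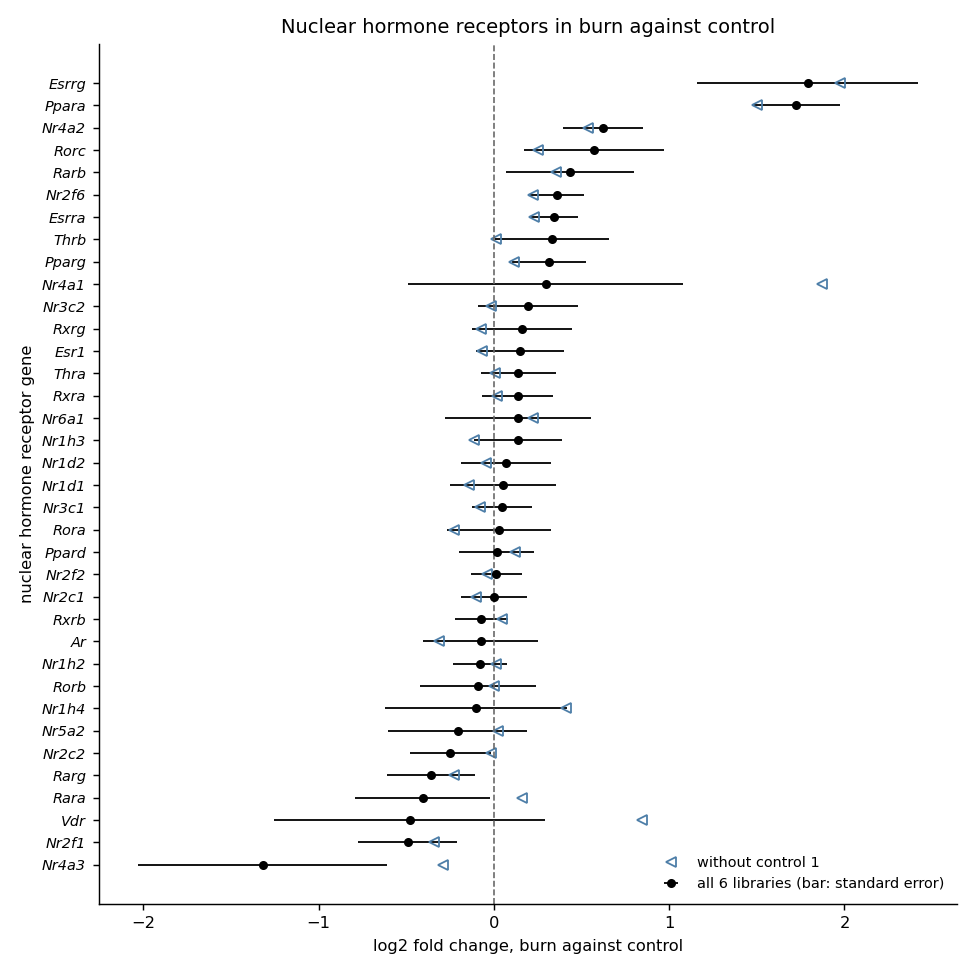
Log2 fold change of burn against control (x axis) of the 36 tested nuclear hormone receptor genes (y axis); points with bars are values and standard errors with all 6 adult libraries, and open triangles the values without control 1. Esrrg and Ppara lie highest at 1.79 and 1.73, and most others lie near 0.

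No gene was lower in burn past the threshold with all 6 libraries by either tool. By the same rule as above, the 12 of smallest p among those lower in burn were Armcx2, Ces2g, Zfp658, Hdac9, Vtn, Msc, Rrad, Myb, Ccr7, Grap2, Rtl6 and Meis3, each at an edgeR adjusted p of 0.774. The lymphoid genes Ccr7, Grap2 and Myb had differences of −5.91, −5.28 and −2.99 with control 1 and −0.78, −0.84 and −1.08 without it. Ces2g, a carboxylesterase, stood at 11.9, 9.93 and 13.7 CPM in controls against 8.12, 6.15 and 7.05 CPM in burn, with −0.74 ± 0.21 and −0.75 without control 1. Hdac9, a histone deacetylase family member, stood at 12.7, 5.74 and 6.96 CPM against 3.56, 4.39 and 3.69 CPM, with −1.13 ± 0.34 and −0.73 without control 1. DESeq2 called 2 genes lower without control 1, Hba-a1, a hemoglobin gene, and Ssc5d, and 1 without both libraries, again Hba-a1. Without burn 1 it called 9 lower: Atcay, Chst4, Prg3, Syndig1l and 5 immunoglobulin light chain segments, all with 121 to 223 reads in control 1 and 0 in each other library of that fit. Hba-a1 stood at 17.1, 215 and 210.5 CPM in controls and 72.8, 93.3 and 121 CPM in burn, and the amount of blood in the samples was not tested. Ssc5d stood at 17.9, 26.5 and 27.2 CPM against 17.1, 18 and 17.7 CPM.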

How the data were processed

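Messenger RNA of adipose tissue was sequenced in 12 libraries, of which the 6 of adult mice are used here; the 6 columns of aged mice were not used. Per the labels' protocols, RNA was extracted with Trizol, selected for poly(A) and made into directional libraries. The authors deposited raw read counts per gene under Entrez identifiers; per the submitters' processing notes FastQC, MultiQC, cutadapt, HISAT2 and featureCounts were used on mm10, and no source used here gives versions, annotation or counting options. Of 27179 identifiers, 25275 matched a RefSeq GRCm38.p6 symbol; unmatched ones held 0.366 to 0.76% of the counts of a library. Genes passing edgeR's default count filter were scaled by TMM and tested with the quasi-likelihood test (edgeR 4.0.16, R 4.3.3) at a Benjamini-Hochberg adjusted p under 0.05. DESeq2 1.42.0 and limma 3.58.1 were alternatives. On simulated counts with these groups (14472 genes), edgeR recovered 10 of 100 2-fold and 78 of 100 4-fold changes, and 8.33% of its calls were unchanged genes. List levels are mean log2(CPM + 1). The members, gene lists and tests were chosen with earlier results of these data known. Genes were named by a rule: every called gene; the 12 uncalled genes of smallest p in each direction whose groups did not overlap, whose sign held without each library and without control 1 and burn 1 together, and whose higher group mean was at least 5 CPM, without pseudogenes, antigen receptor segments and gene models that have no proper name; for each adipocyte, mitochondrial and receptor list, called members, the 2 smallest p and the most abundant; markers of libraries that stand apart; and a short list of hormone, thermogenic and marker genes. Genes outside the rule were named after their values were seen. Alternatives were other scalings, count filters, tools, a replicate block and leaving out libraries. Some genes that the rule names are not reported here.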

Additional observations from a re-analysis of the deposited data

How the results depend on the processing

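The count of 9 called genes was 8 with RLE or upper quartile scaling, 6 without a count filter, 9 with a filter of 1 CPM, 9 with limma-voom (8 shared, Kng2 lost, Cox7a1 gained), 9 with its quality weights (7 shared, Kng2 and Cpt1b lost, Cox7a1 and Phospho1 gained), 9 with robust and 6 with legacy quasi-likelihood fitting; it was 63 with DESeq2. Leaving out 1 library gave 0 to 6 calls, all higher in burn, and leaving out control 1 and burn 1 together gave 0; fewer samples were tested in these fits. DESeq2 without control 1 called 104 genes (102 higher, 2 lower), without burn 1 34 (25 higher, 9 lower) and without both 45 (44 higher, 1 lower), a choice made after seeing the data; the cause was not tested. Same-numbered control and burn libraries had correlations of deviations of 0.01, −0.00 and 0.25, the last being the highest of all pairs. Not every library correlated best with its own number. Whether the numbers mark a shared batch or day was not tested, and 3 libraries a group are too few to tell. With a replicate block edgeR called 0 genes (503 at an unadjusted p under 0.05). No called value reversed its sign under any of these alternatives. On the simulated counts, with 3 libraries a group, most 2-fold changes lay below what the test detected. Those counts were drawn for each gene separately, with no library standing apart as control 1 and burn 1 do here. With a window of 100 bases, TGACGTCA occurred in 1 of the 7 promoters of called genes and in 2.26% of those of tested genes.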
